A study of Mus musculus with 5 samples.

Results

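Müller glia are the radial glial cells that span the retina. This account follows 10 genes of their identity and injury response in the injured mouse retina. The genes were taken by symbol from a deposited table of 25655 genes, and all 10 were measured. Glul and Rlbp1 stand for the identity of the cell. Gfap, Vim, Lcn2, Serpina3n, Edn2, Fgf2, Stat3 and Socs3 stand for its reactive state, among which Edn2 is a signal made by stressed photoreceptors.

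Total RNA of whole retinas from wildtype C57BL/6 mice was sequenced 7 days after optic nerve crush (ONC). The DMSO group held 3 retinas (replicates 1, 2 and 3) from mice given the vehicle. The Sorbinil group held 2 retinas (replicates 1 and 3) from mice given the aldose reductase inhibitor Sorbinil at 10 mg/kg, daily and from the day before ONC. Every retina of both groups had been crushed, mice were 8 to 10 weeks old at ONC and both sexes were used in the study. The comparison therefore asks how Sorbinil changes the injured retina, and an uninjured retina was not analysed here.

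Healthy Müller glia take up glutamate released by neurons and turn it into glutamine, and they recycle visual pigment for cones. After injury they undergo gliosis, in which intermediate filaments accumulate and acute phase and secreted factors are made. Cytokines of the interleukin-6 family are a known trigger, acting through the receptor subunit gp130, the JAK kinases and the transcription factor STAT3, with SOCS3 as the feedback inhibitor. Endothelin-2, made by stressed photoreceptors, and fibroblast growth factor 2 are injury signals for which Müller glia carry receptors.

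Counts on genes totaled 56096541 to 90288552 per retina. Values below are CPM, the counts scaled to library size after TMM normalization for library composition, and differences are on the log2 scale, Sorbinil against DMSO. Sorbinil replicate 1 stood apart from the other 4 retinas across the whole table, with 17.4% of the 14992 genes tested at least 2-fold below the DMSO mean. Each result is therefore also given for the single Sorbinil retinas. In whole retina, fewer cells of a type and less RNA per cell cannot be told apart. All markers of rods, cones, bipolar, amacrine and ganglion cells that were checked passed the filter on low counts, as did 11 of 11 further Müller glia genes. Neutrophil markers were close to absent, and S100a8, the 1 of 7 that passed the filter, measured 0.018 to 0.701 CPM in DMSO retinas and 0 and 0.0147 CPM in Sorbinil retinas.

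STAT factors bind a short DNA element whose outer letters are TTC and GAA with any 3 bases between, written TTCNNNGAA, which reads the same on both strands. In the 250 bases before the transcription start in the RefSeq promoter table, this element was present once before Socs3 and in none of the other 9 genes, compared to 5.85% of the 15015 promoters of genes tested. The promoters were read from the table (made on GRCm38.p6) and placed by exact match on GRCm39, the build to which the reads were mapped. The Socs3 element is shown since Socs3 is the feedback target of STAT3, with the element in capitals and 10 bases on either side (chr11:117860328-117860356, minus strand). It lies 146 to 154 bases before the RefSeq start. GENCODE places it in the 5′ UTR of 1 transcript with an earlier start. For Gfap, the classical filament of gliosis, the part of the window with no annotated exon is shown, and it holds no such element (chr11:102788186-102788276, minus strand). The GENCODE gene extends further upstream, so this stretch is also intronic to 1 longer transcript.
Socs3: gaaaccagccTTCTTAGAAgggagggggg
Gfap: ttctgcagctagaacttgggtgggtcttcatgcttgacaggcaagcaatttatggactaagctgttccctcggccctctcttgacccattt
The absence of these letters says nothing about STAT3 at a longer distance, and a match is not a measured binding site.

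Of the 10 genes, 1 passed the threshold of the study, an unadjusted p-value of at most 0.1 with at least a 2-fold change. This was Serpina3n, which was lower in Sorbinil retinas. Across all genes, 1.71% passed this threshold in either direction and 1.35% were lower. No gene of the 10, and 0% of all genes, had an adjusted p-value under 0.05 in edgeR's quasi-likelihood test. At an unadjusted limit of 0.05, 1 of the 10 genes passed, compared to 5.01% of all genes. The DESeq2 Wald test and edgeR's likelihood ratio test also gave 0 of the 10 genes after adjustment, and 21 and 14 of all genes.

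**Figure D1:**
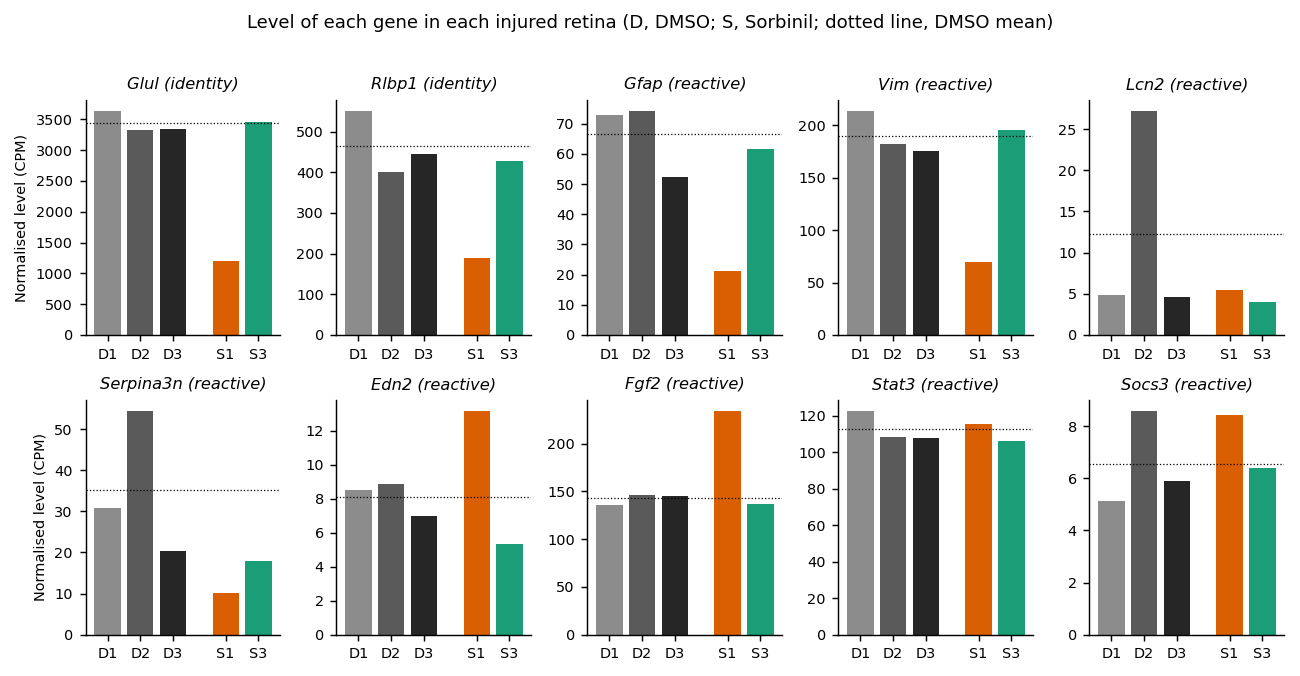
Bars give the CPM of each gene (vertical axes from 0) in DMSO retinas D1, D2 and D3 and Sorbinil retinas S1 and S3, and dotted lines mark the DMSO mean. In S1 the bars of Glul, Rlbp1, Gfap and Vim are short, D2 carries the tall bars of Lcn2 and Serpina3n, and S1 carries the tall bars of Edn2 and Fgf2.

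Glul (ENSMUSG00000026473, chromosome 1 from 153775690 to 153785469, plus strand) encodes glutamine synthetase, the enzyme that makes glutamine from glutamate. It measured 3629, 3333 and 3352 CPM in DMSO replicates 1, 2 and 3, and 1195 and 3458 CPM in Sorbinil replicates 1 and 3. Sorbinil replicate 3 lay among the DMSO retinas, while replicate 1 was 2.87-fold below their mean. Between the groups the log2 fold change was -0.56 (standard error 0.46, 95% interval -1.69 to 0.56, unadjusted p-value 0.264, adjusted 0.758, edgeR). This interval spans both a fall of more than 2-fold and a modest rise.

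Rlbp1 (ENSMUSG00000039194, chromosome 7 from 79024602 to 79038176, minus strand) encodes CRALBP, which carries retinaldehyde in Müller glia and in the pigment epithelium. Its level was 549.7, 401.9 and 445.04 CPM with DMSO, and 190.0 and 427.8 CPM with Sorbinil. Again 1 Sorbinil retina was low and the other was inside the DMSO range. The log2 fold change was -0.59 (95% interval -1.49 to 0.31, unadjusted p-value 0.157, edgeR). Of 6 pigment epithelium markers, 5 were also below every DMSO retina in Sorbinil replicate 1 and 0 in replicate 3. Of all genes, 41.7% and 29.1% were below in these retinas. The summed level of the pigment epithelium markers was 95.7, 86.6 and 228 CPM with DMSO and 74.4 and 129 CPM with Sorbinil. The part of these cells in the Rlbp1 level was not tested.

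Gfap and Vim encode intermediate filaments, of which Gfap is also made by retinal astrocytes. Gfap (ENSMUSG00000020932, chromosome 11 from 102778159 to 102791738, minus strand) measured 72.8, 74.1 and 52.4 CPM in DMSO retinas and 21.3 and 61.7 CPM in Sorbinil replicates 1 and 3. The Sorbinil replicate 3 value fell between DMSO retinas, and replicate 1 was 3.09-fold below the DMSO mean. This gave a log2 fold change of -0.68 (standard error 0.45, 95% interval -1.80 to 0.44, unadjusted p-value 0.186).

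Vim (ENSMUSG00000026728, chromosome 2 from 13578738 to 13587639, plus strand), the gene of vimentin, measured 213, 181.8 and 175.0 CPM with DMSO, and 69.3 and 195.5 CPM with Sorbinil. Its log2 fold change was -0.52 (95% interval -1.57 to 0.53, unadjusted p-value 0.267). The groups overlapped for both filament genes, as for both identity genes. Without Sorbinil replicate 1 the log2 fold changes of Glul, Rlbp1, Gfap and Vim were 0.019, -0.11, -0.096 and 0.052, and without Sorbinil replicate 3 they were -1.52, -1.29, -1.64 and -1.45.

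Serpina3n and Lcn2 encode secreted acute phase proteins, a serine protease inhibitor and the iron-siderophore binding protein lipocalin-2, both widely used as markers of reactive glia. Serpina3n (ENSMUSG00000021091, chromosome 12 from 104372810 to 104380597, plus strand) measured 30.9, 54.3 and 20.4 CPM in DMSO retinas, compared to 10.2 and 17.9 CPM in Sorbinil retinas. Both Sorbinil retinas lay below every DMSO retina, a pattern that 10.5% of all genes showed, and the gap between Sorbinil replicate 3 and DMSO replicate 3 was small. Serpina3n had a log2 fold change of -1.32 (standard error 0.48, 95% interval -2.50 to -0.15, unadjusted p-value 0.0334, adjusted 0.758, edgeR's quasi-likelihood test). It was -0.87 without DMSO replicate 2 and -0.96 without Sorbinil replicate 1, and passed the threshold of the study in neither fit. Serpina3n belongs to a cluster of related paralogs, so that its counts are uncertain where reads could be assigned to a neighbor.

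Among the 10 genes, Lcn2 (ENSMUSG00000026822, chromosome 2 from 32274645 to 32278264, minus strand) varied most among the DMSO retinas, at 4.87, 27.1 and 4.64 CPM, a 5.84-fold range. The Sorbinil retinas measured 5.48 and 3.98 CPM, close to DMSO replicates 1 and 3. The log2 fold change of -1.37 (95% interval -3.55 to 0.80, unadjusted p-value 0.172) thus rested on DMSO replicate 2, without which it was -0.0098. The DESeq2 Wald test called Lcn2 at the threshold of the study, at -1.38 with an unadjusted p-value of 0.0677. Of 10 further reactive genes tested, 1 was at least 2-fold above the DMSO mean in DMSO replicate 3, compared to 72 of all 14992 genes. In DMSO replicate 2, 2 of them were, compared to 51 of all genes. Steap4, a metalloreductase, measured 5.79 CPM there and 1.49 and 1.19 CPM in DMSO replicates 1 and 3, and Timp1, an inhibitor of matrix metalloproteinases, measured 1.51, 0.393 and 0.306 CPM in the same order. Both were named after their values were seen. Of the neutrophil markers, S100a8 had 56, S100a9 68 and Retnlg 18 counts in DMSO replicate 2, compared to 0 to 16 counts in the other retinas, whereas Ly6g, Mpo, Elane and Camp had 0 to 4 counts in every retina. Neutrophils also make Lcn2, and the part of these cells in its level was not tested.

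**Figure D2:**
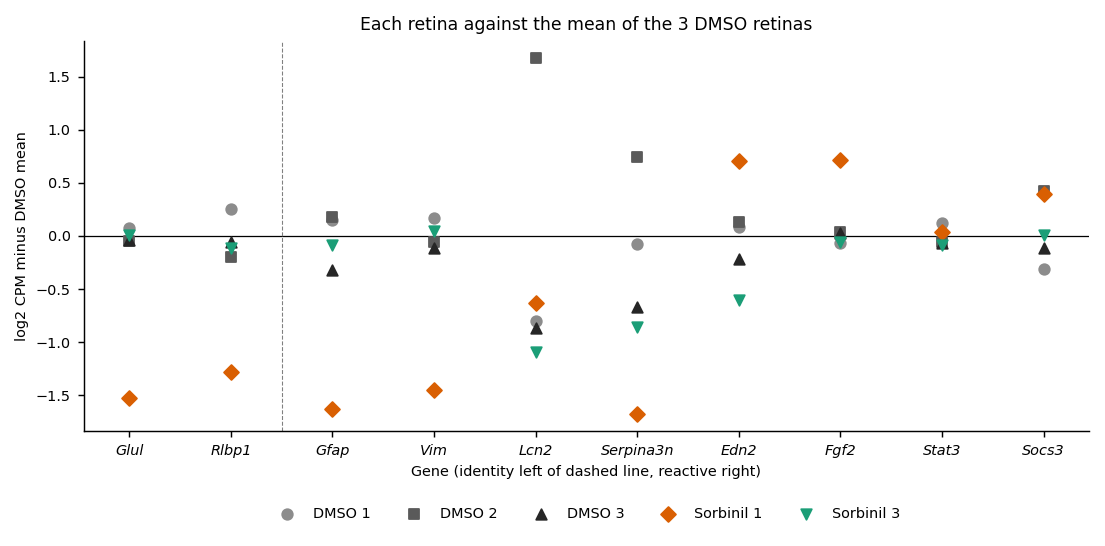
Points give log2 CPM of each retina minus the mean of the 3 DMSO retinas, for the identity genes (left of the dashed line) and the reactive genes. Sorbinil 1 lies between -1.67 and -1.28 for Glul, Rlbp1, Gfap, Vim and Serpina3n and at 0.70 and 0.71 for Edn2 and Fgf2, while Sorbinil 3 is within 0.11 of zero for Glul, Rlbp1, Gfap, Vim, Fgf2, Stat3 and Socs3.

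The secreted injury signals went the other way in Sorbinil replicate 1. Fgf2 (ENSMUSG00000037225, chromosome 3 from 37402473 to 37464257, plus strand), which encodes a survival factor for photoreceptors, measured 136.2, 146.2 and 145.3 CPM in DMSO retinas. It measured 233.8 CPM in Sorbinil replicate 1 and 137.1 CPM in Sorbinil replicate 3, so that 1 Sorbinil retina was 1.64-fold above the DMSO mean and the other was level with it. Its log2 fold change was 0.38 (standard error 0.23, 95% interval -0.20 to 0.96, unadjusted p-value 0.157), and -0.045 without Sorbinil replicate 1. Nudt6, which overlaps Fgf2 on the other strand, averaged 255.6 counts per retina.

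Edn2 (ENSMUSG00000028635, chromosome 4 from 120018403 to 120024557, plus strand), the gene of endothelin-2, measured 8.54, 8.86 and 6.96 CPM with DMSO. The Sorbinil retinas lay on both sides of this range, at 13.1 and 5.32 CPM. The log2 fold change was 0.18 (95% interval -0.78 to 1.14, unadjusted p-value 0.656), and 0.0086 when libraries were scaled by their totals alone. Its sign differed between the single retinas, at 0.69 with replicate 1 alone and -0.60 with replicate 3 alone.

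Stat3 (ENSMUSG00000004040, chromosome 11 from 100775924 to 100830450, minus strand) varied least of the 10 genes over the 5 retinas. Its level was 122.5, 108.2 and 107.9 CPM with DMSO, and 115.5 and 106.1 CPM with Sorbinil, a log2 fold change of -0.03 (standard error 0.12, 95% interval -0.33 to 0.28, unadjusted p-value 0.836). This interval leaves out a 2-fold change in either direction. Stat5a, which overlaps Stat3 on the other strand, averaged 314.4 counts per retina. Socs3 (ENSMUSG00000053113, chromosome 11 from 117856905 to 117860898, minus strand) measured 5.14, 8.57 and 5.90 CPM with DMSO, and 8.43 and 6.41 CPM with Sorbinil. Its log2 fold change of 0.18 (95% interval -0.51 to 0.88, unadjusted p-value 0.544) lay within the spread of the DMSO retinas, of which replicate 2 was the highest. Thus neither the transcription factor nor its feedback inhibitor was separated by treatment at the level of RNA, which does not report on the phosphorylation of STAT3.

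**Figure D3:**
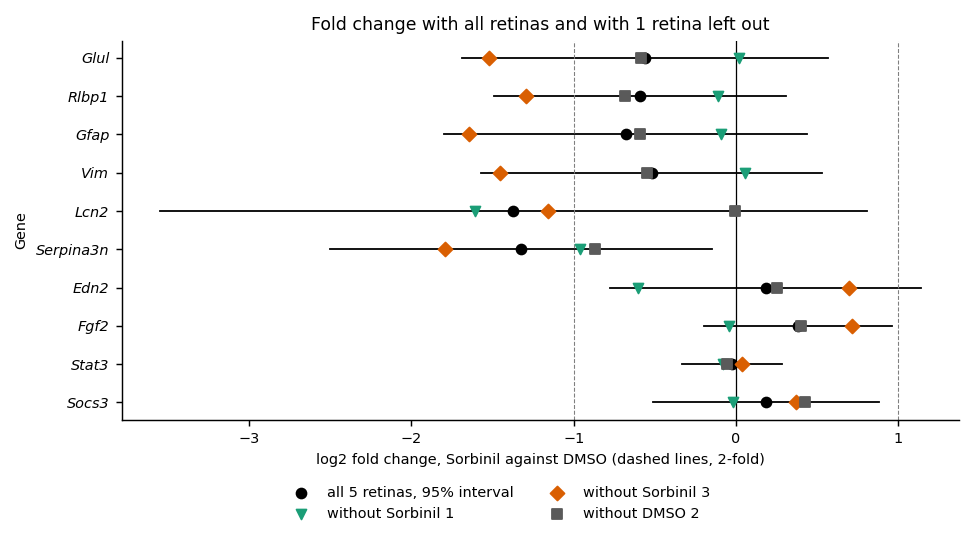
Black points and lines give the log2 fold change with its 95% interval from all 5 retinas, and colored points the value when Sorbinil 1, Sorbinil 3 or DMSO 2 is left out, with dashed lines at a 2-fold change. Only the interval of Serpina3n lies on one side of zero, and Glul, Vim, Edn2, Fgf2 and Socs3 change sign when Sorbinil 1 is left out.

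Identity and reactive genes did not form opposite groups. In Sorbinil replicate 1, both identity genes and 3 of the 8 reactive genes (Gfap, Vim and Serpina3n) were below every DMSO retina, compared to 41.7% of all genes. Edn2 and Fgf2 were above every DMSO retina there, compared to 43.4% of all genes, and Lcn2, Stat3 and Socs3 lay inside the DMSO range. In Sorbinil replicate 3, 0 of 2 identity genes and 4 of 8 reactive genes (Lcn2, Serpina3n, Edn2 and Stat3) were below every DMSO retina, compared to 29.1% of all genes. A score took the mean log2 CPM of the 8 reactive genes, Edn2 included, minus that of Glul and Rlbp1. It was -5.38, -4.62 and -5.37 in DMSO retinas, and -4.16 and -5.42 in Sorbinil retinas. The group means differed by 0.33, less than the standard deviation of 0.44 among DMSO retinas, and by -0.29 without Sorbinil replicate 1 and 0.96 without Sorbinil replicate 3. With the median over the genes in place of the mean, the difference was -0.24, so its direction depended on how the genes were summed up.

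Relating each gene to Glul within the same library removes the scaling between libraries. Per 1000 Glul counts, Vim had 58.7, 54.6 and 52.2 counts in DMSO retinas, against 57.9 and 56.5 in Sorbinil retinas. For Gfap the ratios were 20.1, 22.2 and 15.6 with DMSO against 17.8 and 17.9 with Sorbinil. For Rlbp1 they were 151, 121 and 133 against 159 and 124. The filament genes thus kept their proportion to glutamine synthetase in Sorbinil replicate 1, in which all of them were low. For Serpina3n the ratios were 8.51, 16.3 and 6.10 with DMSO against 8.51 and 5.19 with Sorbinil, so that the groups overlapped on this scale although they did not in CPM.

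For Lcn2 the ratios were 1.34, 8.14 and 1.39 with DMSO against 4.58 and 1.15 with Sorbinil, so that Sorbinil replicate 1 lay inside the DMSO range. Stat3, Fgf2, Edn2 and Socs3 did not keep their proportion to Glul in Sorbinil replicate 1. Stat3 had 32.2 to 33.8 counts per 1000 Glul counts in DMSO retinas and 30.7 in Sorbinil replicate 3, compared to 96.6 in Sorbinil replicate 1. Fgf2 had 37.5 to 43.9 with DMSO, 39.6 in replicate 3 and 195.6 in replicate 1. For Edn2 the values were 2.08 to 2.66, 1.54 and 11.0, and for Socs3 they were 1.42 to 2.57, 1.85 and 7.05. Set against Gnat1, the rod transducin subunit, Fgf2 had 8.95 to 9.90 counts per 1000 with DMSO and 11.0 and 11.1 with Sorbinil, and Edn2 had 0.429 to 0.621 with DMSO and 0.616 and 0.431 with Sorbinil. Stat3, by contrast, had 6.65 to 8.90 with DMSO, 5.41 in Sorbinil replicate 1, below every DMSO retina, and 8.60 in replicate 3. Socs3 had 0.363 to 0.537 with DMSO and 0.395 and 0.519 with Sorbinil. Of the other genes, Glul, Rlbp1, Gfap, Vim, Lcn2 and Serpina3n were below every DMSO retina in Sorbinil replicate 1 on this scale. Gnat1 was chosen for this after the values were seen. These ratios show which genes changed unequally and not which of them changed.

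**Figure D4:**
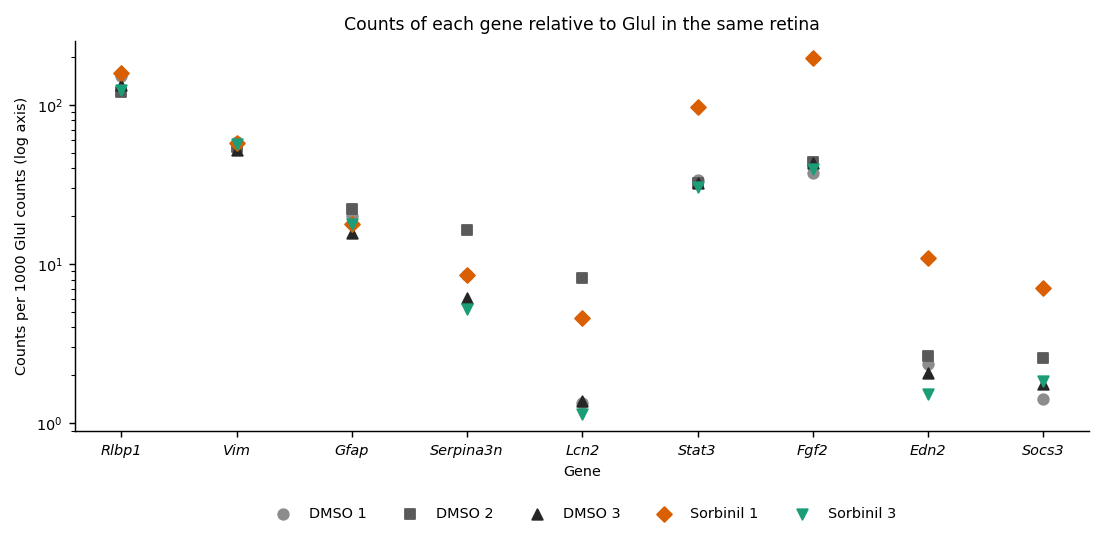
Points give counts per 1000 Glul counts in the same retina on a log axis, for the other 9 genes. Vim and Gfap of Sorbinil 1 lie within the DMSO range and Rlbp1, at 159, lies just above its highest value of 151, whereas Stat3, Fgf2, Edn2 and Socs3 of Sorbinil 1, at 96.6, 195.6, 11.0 and 7.05, are above all other retinas by a wider margin.

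Levels of different genes can be set side by side only per length. Per kilobase of annotated exon, Glul was at 871 ± 42.0 CPM (SD, n = 3) in DMSO retinas, followed by Rlbp1 at 130 ± 21.2 and Vim at 40.0 ± 4.26. Fgf2 was at 20.9 ± 0.813, Gfap at 11.6 ± 2.13, Stat3 at 11.2 ± 0.826 and Serpina3n at 9.01 ± 4.44. Edn2 was at 5.56 ± 0.693, Lcn2 at 4.66 ± 4.93 and Socs3 at 1.84 ± 0.506. From Gfap down this order, neighbors overlapped within their SD, while the steps from Glul to Rlbp1, Vim, Fgf2 and Gfap were larger than the SD. The length counts every annotated exon, including those not used in retina.

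Other genes of Müller glia followed the identity pair. Of 11 genes, which include the glutamate transporter Slc1a3, the water channel Aqp4 and the potassium channel Kcnj10, all were lower and none passed the threshold, with a median log2 fold change of -0.46 compared to -0.0078 over all genes. All 11 were below every DMSO retina in Sorbinil replicate 1, compared to 41.7% of all genes, with a median log2 difference of -1.32. In Sorbinil replicate 3 this held for 1 of 11, compared to 29.1% of all genes, and the median of the 11 was 0.10. The smallest unadjusted p-values were those of Hes1, a Notch target (21.8, 19.1 and 21.1 CPM with DMSO and 6.13 and 18.8 with Sorbinil, unadjusted p-value 0.160), and Dkk3, a secreted Wnt modulator (1115, 869 and 803 CPM with DMSO and 276 and 882 with Sorbinil, unadjusted p-value 0.216). Markers of astrocytes, the other source of Gfap, behaved alike. In replicate 1, 4 of 4 were below every DMSO retina (41.7% of all genes), and in replicate 3, 1 of 4 (29.1%). S100b, a calcium-binding protein, measured 5.18, 5.34 and 5.18 CPM with DMSO and 1.83 and 5.02 with Sorbinil, and Pdgfra, a growth factor receptor, measured 15.7, 20.3 and 16.2 CPM with DMSO and 5.73 and 18.0 with Sorbinil.

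Further reactive glia genes were mostly lower in Sorbinil replicate 1 but not in replicate 3. Of 11 genes, 10 were tested and 0 passed the threshold of the study. Between the groups 8 were lower, compared to 7653 of all 14992 genes, with a median log2 fold change of -0.27. In Sorbinil replicate 1, 8 were below and 1 above every DMSO retina, with a median log2 difference of -1.13. In replicate 3, 1 was below and 3 above, with a median of 0.29. Of all genes, 41.7% were below and 43.4% above in replicate 1, and 29.1% below and 4094 genes above in replicate 3. Synm, which encodes the intermediate filament protein synemin, was higher, at 40.1, 43.0 and 36.6 CPM with DMSO and 55.6 and 54.2 CPM with Sorbinil. This log2 fold change of 0.46 (standard error 0.12, unadjusted p-value 0.00863, adjusted 0.758, edgeR) was under the 2-fold limit. Both Sorbinil retinas were above every DMSO retina and close to each other. Hspb1, a small heat shock protein, measured 4.995, 6.15 and 4.68 CPM with DMSO and 1.69 and 4.54 with Sorbinil.

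The gp130, JAK and STAT genes around Stat3 and Socs3 were split in direction. In Sorbinil replicate 1, 8 were below and 6 above every DMSO retina, compared to 41.7% and 43.4% of all genes. Of 23 genes, 22 were tested, 12 were lower and 10 higher, 0 passed the threshold, and the median log2 fold change was -0.03. Their median difference from the DMSO mean was 0.01 in Sorbinil replicate 1 and -0.03 in replicate 3. The smallest unadjusted p-value belonged to Lifr, the receptor of leukemia inhibitory factor. It measured 183, 210 and 218 CPM with DMSO and 374 and 225 CPM with Sorbinil (log2 fold change 0.55, unadjusted p-value 0.0588). The 2 Sorbinil retinas were above every DMSO retina, and the change was under 2-fold.

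Other genes of the endothelin and fibroblast growth factor pathways were mostly lower in Sorbinil replicate 1, where Edn2 and Fgf2 were higher, and the difference was not tested. All 6 endothelin genes other than Edn2 were below every DMSO retina there, compared to 41.7% of all genes. In replicate 3 this held for 0 of 6, compared to 29.1% of all genes. The 6 comprise the ligands Edn1 and Edn3, the receptors Ednra and Ednrb and a pair of enzymes. Their median log2 fold change was -0.32, with 0 passing the threshold. Ece1 and Ece2, enzymes that release active endothelin, had the smallest unadjusted p-values. Ece1 measured 68.3, 54.9 and 52.4 CPM with DMSO and 28.5 and 56.9 with Sorbinil, and Ece2 27.8, 24.6 and 22.2 with DMSO and 10.5 and 25.1 with Sorbinil. Of 13 further fibroblast growth factor genes, 10 were lower, 3 were higher and 0 passed, with a median of -0.38. In Sorbinil replicate 1, 9 of them were below and 2 (Frs2 and Spry2) above every DMSO retina, and in replicate 3 these counts were 1 and 6. Of all 14992 genes, 41.7% were below and 43.4% above in replicate 1, and 29.1% below and 4094 genes above in replicate 3. Spry2, a feedback inhibitor, is named after its values were seen and measured 61.3, 53.0 and 58.2 CPM with DMSO and 66.5 and 51.3 with Sorbinil. Frs2, an adaptor of the receptors, measured 47.8, 44.8 and 43.1 CPM with DMSO and 55.5 and 48.7 with Sorbinil, and Dusp6, a phosphatase induced by the pathway, measured 26.1, 23.5 and 19.5 CPM with DMSO and 14.2 and 22.4 with Sorbinil.

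Markers of several other cell types were low along with the glial genes in Sorbinil replicate 1, while most photoreceptor markers were high. All 6 bipolar, 8 amacrine and horizontal, 8 ganglion cell and 8 microglial markers were below every DMSO retina there, while 8 of 8 rod markers and 5 of 6 cone markers were above. Of all genes, 41.7% were below and 43.4% above in this retina. Summed rod markers came to 73787 to 87527 CPM in DMSO retinas, 121352 CPM in Sorbinil replicate 1 and 62462 CPM in replicate 3. Summed amacrine and horizontal markers came to 660 to 861 CPM, 285 CPM and 861 CPM in the same order, and summed microglial markers to 132 to 190.5 CPM, 89.3 CPM and 150 CPM. The part of this shift in the glial values was not tested.

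Besides S100a8, the markers to pass the threshold were those of vessels, all lower, compared to 1.35% of all genes. They were 3 of 6 endothelial markers (Cdh5, Cldn5 and Tie1, at log2 fold changes of -1.88, -1.62 and -1.83). The others were 2 of 5 pericyte markers (Des and Acta2, at -1.50 and -1.24). Pecam1, Kdr and Flt1, at -0.24, -0.34 and -0.69, did not pass, nor did Rgs5, Pdgfrb and Notch3, at -0.97, -0.50 and -0.42. Endothelial markers had a median log2 difference from the DMSO mean of -1.99 in Sorbinil replicate 1 and -0.87 in replicate 3, whereas the further Müller glia genes were at -1.32 and 0.10. The difference between the lists was not tested.

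**Figure D5:**
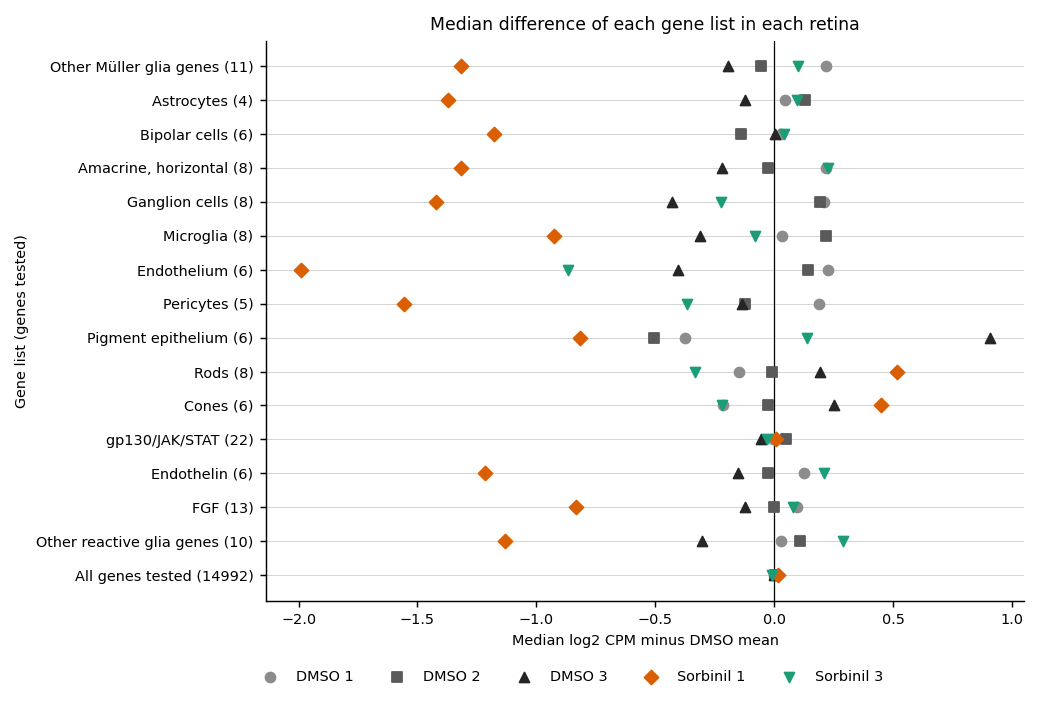
Each row is a gene list with the number of genes tested, and points give the median over its genes of log2 CPM minus the DMSO mean, per retina. Sorbinil 1 sits at -1.32 for the further Müller glia genes and at 0.51 for rods, Sorbinil 3 sits at 0.10 and -0.33, and the gp130/JAK/STAT list is within 0.06 of zero in all 5 retinas.

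Genes whose pattern over the 5 retinas was most like that of Gfap and Glul were sought among all genes tested, by the root mean square difference of log2 CPM centered on each gene's own mean. For Gfap these were Ebf4 (0.03), Niban2 (0.06) and B4galnt1 (0.06). For Glul they were Nap1l5 (0.02), Plppr1 (0.03) and Cd200 (0.04). Vim was at 0.06, Rlbp1 at 0.16 and Gfap at 0.17 from Glul, compared to 0.57 for Serpina3n and 1.13 for Lcn2. Glul, Rlbp1, Gfap, Vim and Serpina3n share a low value in Sorbinil replicate 1 and Lcn2 does not, and 5 retinas of the same libraries carry no test of likeness.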

How the data were processed

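The authors trimmed adaptors, mapped reads to GRCm39 in CLC Genomics Workbench with default settings, and the deposited values are whole-number counts for each gene, without normalization. The labels name a reverse-stranded library kit. Whether counting used strand, and how reads on several genes were treated, is not given in the sources used here. In GENCODE vM39 a gene on the other strand overlaps part of Glul, Vim, Fgf2, Stat3 and Socs3, so these counts are uncertain unless strand was used. A long noncoding RNA gene on the same strand also overlaps Fgf2, and a miRNA gene overlaps Glul, which strand would not settle. Columns were assigned by the names they share with the labels, and 0 were left out. Sorbinil replicate 2, left out by the authors on the basis of their PCA, was not analysed here.

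Counts were filtered with filterByExpr (minimum count 10), scaled by TMM and tested over all 14992 genes with glmQLFit and glmQLFTest in edgeR 4.0.16 (limma 3.58.1, R 4.3.3), with Benjamini-Hochberg adjustment and no other term. Log2 CPM used a prior count of 2. Differences of single retinas are on that scale. Standard errors and intervals come from the same fit. The study gives the group sizes as numbers of mice, with 1 eye crushed in each. The p-values therefore measure the spread between the mice kept after the authors' exclusion by PCA, and not between all treated mice. Reads without molecular identifiers make counting error a lower limit. Every pair of retinas differed beyond sampling noise (chi-square divided by its degrees of freedom was 25.4 or more). Alternatives are given in the closing section (DESeq2 1.42.0 for size factors and the Wald test). The test was also run on simulated counts without an outlying retina, so that run does not cover a library that stands apart like Sorbinil replicate 1.

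The genes, lists and tests were chosen with earlier results of these data known. The genes named are the 10 genes, genes of each further list that passed the threshold or else the 2 with the smallest p-value, and the 3 nearest to Gfap and to Glul. Other named genes are given as chosen after their values were seen, as cell markers, or as what a list holds. A gene that this rule would name is not reported here.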

Additional observations from a re-analysis of the deposited data

How the results depend on the processing

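The 257 genes called became 408 with no filter on low counts, 148 with at least 10 counts in every retina and 168 with the unadjusted limit at 0.05. They ranged from 164 (without DMSO replicate 1) to 2903 (without Sorbinil replicate 3) when 1 retina was left out, where a lone Sorbinil retina was assumed to vary like the others. Of the 10 genes, 1 was called, compared to 2 by the DESeq2 Wald test (Lcn2 added), 0 with the replicate block (Serpina3n at -0.89), and 0 to 5 when 1 retina was left out. The number with an adjusted p-value under 0.05 was 0, and 0 to 7 when 1 retina was left out, 7 without Sorbinil replicate 3. The reactive minus identity difference of 0.33 became -0.24 with the median over genes, and lay between -0.29 (without Sorbinil replicate 1) and 0.96 (without Sorbinil replicate 3). Scaling by library totals alone shifted the median log2 change over all genes from -0.0078 to -0.11 and the change of Edn2 to 0.0086.

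With 1 retina left out, log2 fold changes ran from -1.52 to 0.019 for Glul, -1.45 to 0.052 for Vim, -0.60 to 0.69 for Edn2, -0.045 to 0.72 for Fgf2 and -0.017 to 0.43 for Socs3, each changing sign without Sorbinil replicate 1. Stat3 ran from -0.079 to 0.036 and changed sign without DMSO replicate 1 and, at 0.035, without Sorbinil replicate 3. Of 130 refits of single genes, 113 kept direction and side of the threshold. Whether the replicate numbers pair the retinas could not be settled. Deviations correlated at -0.24 for number 1 and -0.12 for number 3. With 2 Sorbinil retinas centered on their own mean, their deviations mirror each other, so these are not separate checks. DMSO replicate 2 has no Sorbinil retina of its number, so with the replicate block it could not inform the fold changes. The block moved the calls to 203 and Lcn2 to -0.026, compared to -0.0098 without DMSO replicate 2. It gave Gfap -0.77 and Vim -0.73, with unadjusted p-values of 0.0552 and 0.0935 (edgeR's quasi-likelihood test), and Glul -0.78 at 0.453. With 2 Sorbinil retinas, differences smaller than the intervals given were not detectable. The causes were not tested.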
